A study of Homo sapiens with 18 samples.

Results

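Insulin-like growth factor (IGF) binding proteins are secreted proteins that bind IGF1 and IGF2 outside the cell. The mRNAs for 6 of them (IGFBP2, IGFBP3, IGFBP4, IGFBP5, IGFBP6 and IGFBP7) were followed across all groups of an RNA-Seq experiment. They were taken by name from the 25435 rows of the deposited count table, and all 6 had at least 10 counts in 3 or more libraries, the condition set for reporting a gene. IGFBP2, IGFBP3, IGFBP5 and IGFBP7 reached 10 counts in all 18 libraries, IGFBP4 in 15 and IGFBP6 in 12.

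HEK293doxERN2 cells are a line of HEK293, a human embryonic kidney line, that carries a doxycycline-inducible FLAG-ERN2 transgene. ERN2 (IRE1β) is an endoplasmic reticulum (ER) stress sensor with an endonuclease domain. Doxycycline was absent or present over 24 hours at 10 ng/mL or at 100 ng/mL, and cells at each dose received either DMSO or 200 nM thapsigargin for 3 hours, which gave 6 groups of 3 libraries. Thapsigargin blocks the ER calcium pump and so causes ER stress. The labels call the doses No, Low and High ERN2 and the 2 treatments control and stress. Every group carries the transgene. No group of cells without it received doxycycline, so effects of the drug and of ERN2 cannot be told apart here. The labels do not say whether the 3 libraries of a group came from separate cultures, and p-values measure only the spread between these libraries.

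Library totals ran from 14876416 to 24652240 counts. The ERN2 row, which was checked first, held 7.79 ± 1.27 counts per 1000000 (CPM; SD, n = 3) in uninduced DMSO cells, and rose to 35.2 ± 18.1 with 10 ng/mL and to 270 ± 34.1 with 100 ng/mL. After thapsigargin the same row held 12.2 ± 1.92, 65.8 ± 41.0 and 207 ± 55.97 CPM. The low dose was uneven, since ERN2 in its DMSO libraries was at 22.6, 27.1 and 55.9 CPM and in its thapsigargin libraries at 32.1, 53.9 and 111.5 CPM. One extraction label names colon crypt epithelial cells, and markers were therefore checked. The 5 HEK293 markers (VIM, KRT8, KRT18, PAX2 and LHX1) were all detected and summed to between 1929 and 3445 CPM per library. Of 5 colon crypt markers, CDX2 and LGR5 were detected (13.9 to 39.7 CPM summed over the list), while MUC2, VIL1 and KRT20 had at most 5 reads in any library. In uninduced DMSO cells LGR5 averaged 29.6 CPM, near LHX1 at 30.9 and above PAX2 at 3.28. VIM, KRT8 and KRT18 averaged 1841, 455.5 and 213.6 CPM there. Of 3 blood and 3 endothelial markers, 1 each was detected, and either list summed to at most 2.67 CPM. Of 4 fibroblast markers, COL1A1 and COL3A1 were detected (13.2 to 32.0 CPM summed), and COL3A1 was lower at 100 ng/mL in DMSO (log2 fold change -2.26, edgeR adjusted p = 2.28e-05), while COL1A1 was at -0.23 (adjusted p = 0.372). In thapsigargin the same comparison gave -1.65 for COL3A1 (adjusted p = 0.01002) and 0.43 for COL1A1 (adjusted p = 0.1835), neither called. The part of these markers in the results below was not tested.

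IGF1 and IGF2 act through the receptor IGF1R, and the binding proteins hold these ligands, lengthen their life outside the cell and control how much of them reaches the receptor. IGFBP2 to IGFBP6 bind IGFs with high affinity, whereas IGFBP7 binds them weakly and is usually classed as a related protein. All are made in the ER with a signal peptide and disulfide bonds. When activated, the IRE1 endonucleases splice XBP1 mRNA and can also cut other mRNAs at the ER, and the element around these cuts is commonly written CUGCAG in the mRNA, or CTGCAG in DNA letters.

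That element was searched in the coding sequence of 1 transcript per gene, the longest complete protein-coding one in GENCODE release 29 (GRCh38). Its letters read the same on both strands. Within the first 700 coding bases it occurred in 5 of the 6 genes and in 49.7% of 15346 genes with coding sequence of that length. It occurred once in IGFBP2, IGFBP3 and IGFBP5, and at 2 places in IGFBP4 and IGFBP6. IGFBP7 had no match in the whole transcript. The coding sequences of the 6 genes were between 62.8% and 69.6% G and C. The 30-base windows below, 1 for each gene with a match, are shown because the genes' mRNAs are compared under an IRE1 enzyme, and capitals mark the element on the mRNA strand, 5′ to 3′.
IGFBP2: tccgagctgcccCTGCAGgcgctggtcatg
IGFBP3: gaggcgcgaccgCTGCAGgcgctgctggac
IGFBP4: gaccgcaggtgcCTGCAGaagcacttcgcc
IGFBP5: atggaggcttccCTGCAGgagctcaaagcc
IGFBP6: tgcgccccaggaCTGCAGtgccatccgccc
The windows lie in coding exons of GRCh38, numbered by the transcript searched, which for IGFBP3 has 6 exons. In other transcripts of a gene the exon number can differ. The windows are in exon 1 of IGFBP2 (chr2:216633872-216633901, plus strand), exon 2 of IGFBP3 (chr7:45920814-45920843, minus strand), exon 2 of IGFBP4 (chr17:40453038-40453067, plus strand), exon 3 of IGFBP5 (chr2:216678184-216678213, minus strand) and exon 1 of IGFBP6 (chr12:53097949-53097978, plus strand). A match describes the letters and is not evidence of a cut.

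Compared per kilobase of transcript, the 6 mRNAs covered a wide range in uninduced DMSO cells. IGFBP7 was highest at 28.7 ± 1.35 CPM per kilobase (SD, n = 3), followed by IGFBP2 at 24.0 ± 2.70 and IGFBP5 at 7.90 ± 2.15, and these 3 did not overlap in their libraries. IGFBP6 stood at 1.53 ± 0.521, IGFBP3 at 1.08 ± 0.179 and IGFBP4 at 1.04 ± 0.356 CPM per kilobase, and these last 3 overlapped. At 100 ng/mL doxycycline in DMSO, IGFBP7 was at 3.62 ± 0.435, IGFBP2 at 3.51 ± 0.705, IGFBP5 at 2.78 ± 1.23 and IGFBP3 at 1.11 ± 0.338 CPM per kilobase, and here IGFBP7, IGFBP2 and IGFBP5 overlapped. IGFBP4 and IGFBP6 were lowest there, at 0.282 ± 0.0806 and 0.231 ± 0.0125. Thus the gap of IGFBP2, IGFBP5 and IGFBP7 over IGFBP3 narrowed with the dose.

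High ERN2 expression in DMSO cells came with lower mRNA for 5 of the 6 binding proteins, and IGFBP3 was the exception. Over all genes tested, 7.49% were called lower in this comparison of 100 with 0 ng/mL doxycycline. The median log2 fold change of the 6 genes was -2.32, against -0.01 over all 14444 genes. Calls here and below use edgeR's quasi-likelihood test with Benjamini-Hochberg adjustment over all genes and a threshold of 0.01. In these bulk samples, fewer cells expressing a gene and less RNA per cell cannot be told apart.

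**Figure D1:**
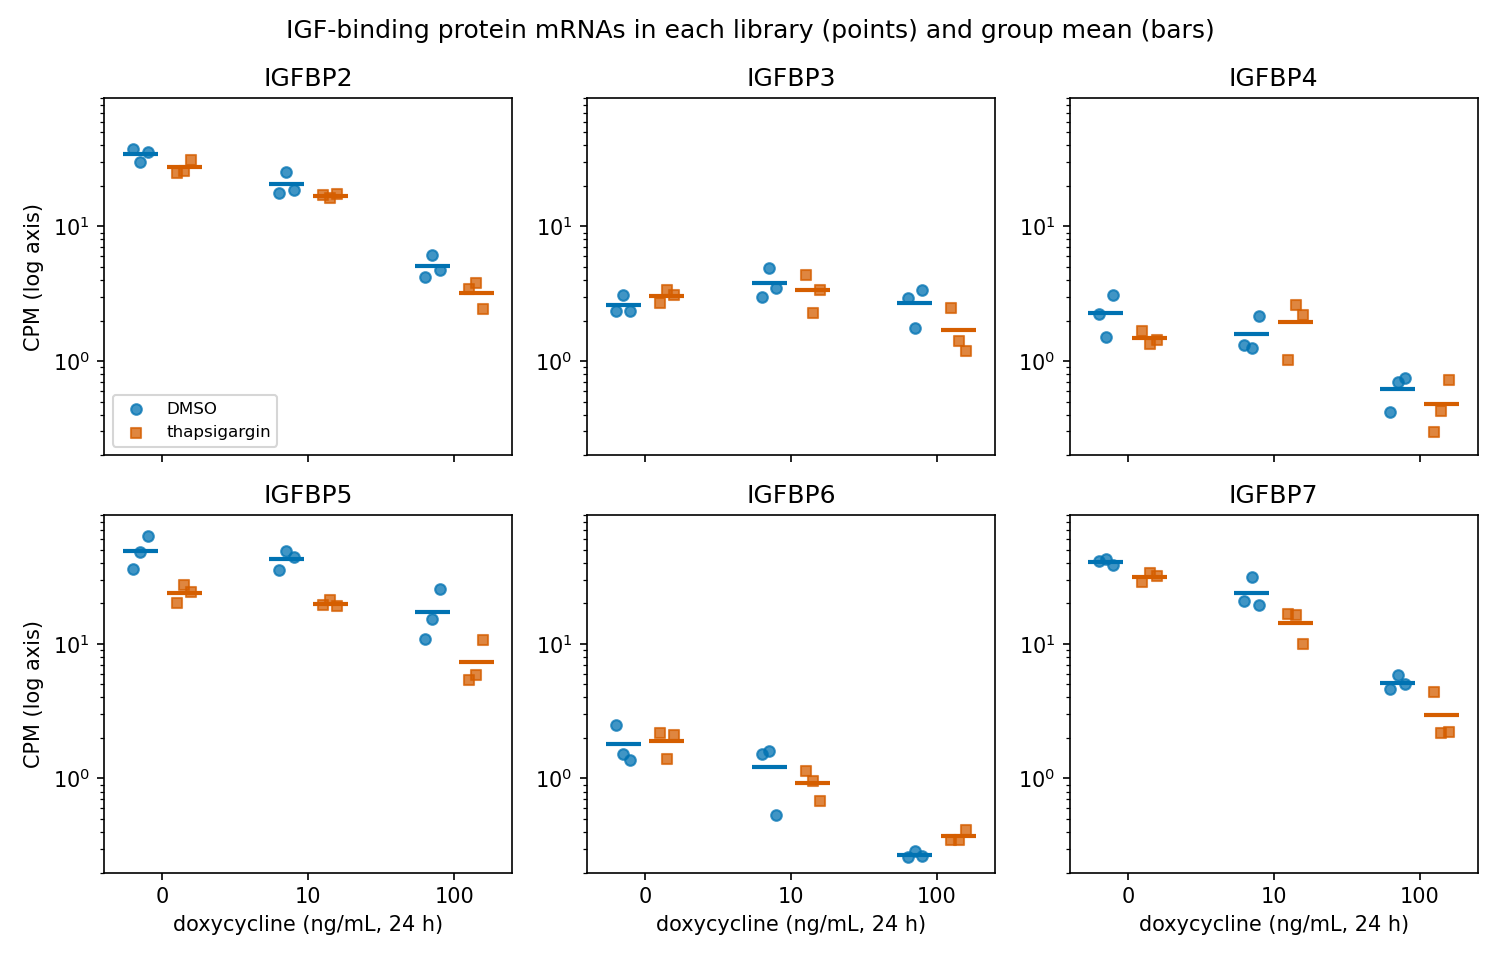
CPM (log axis) of each IGF-binding protein by doxycycline dose in DMSO (circles) and thapsigargin (squares), 1 point per library and a bar for the mean of 3. The points of IGFBP2 and IGFBP7 at the 3 doses do not overlap within a treatment, although 0 to 10 ng/mL was not called for either gene. IGFBP3 lies between 1.19 and 4.91 CPM, and the thapsigargin points of IGFBP5 lie below its DMSO points at each dose, a difference called at 0 and 10 ng/mL but not at 100 ng/mL.

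IGFBP7, which also binds components of the extracellular matrix, had the largest fall of the 6. Its level was 41.6, 42.4 and 38.7 CPM in the 3 uninduced DMSO libraries, 20.7, 31.1 and 19.6 CPM at 10 ng/mL and 4.64, 5.85 and 5.00 CPM at 100 ng/mL. The 3 doses did not overlap. From 0 to 100 ng/mL the mean fell 7.93-fold, with a log2 fold change of -3.02 (SE 0.146, adjusted p = 1.06e-07), and 0.0277% of genes had a lower value. Between 0 and 10 ng/mL the log2 fold change was -0.79 (SE 0.166) and missed the threshold with an adjusted p of 0.0519.

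IGFBP2, a circulating and pericellular binding protein with a preference for IGF2, followed the same course. The uninduced DMSO libraries had 37.6, 30.2 and 35.7 CPM, the 10 ng/mL libraries 17.8, 25.3 and 18.6 CPM, and the 100 ng/mL libraries 4.22, 6.18 and 4.73 CPM. Again no 2 doses overlapped. The mean was 6.84-fold lower at 100 ng/mL (log2 fold change -2.81, SE 0.174, adjusted p = 3.92e-07). At 10 ng/mL the log2 fold change was -0.75 (SE 0.157, adjusted p = 0.0499) and was not called.

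IGFBP5, which is held in the extracellular matrix and is the gene next to IGFBP2, was among the most abundant of the 6 by CPM. Its DMSO libraries had 36.3, 48.0 and 62.9 CPM uninduced, 35.2, 49.1 and 44.5 CPM at 10 ng/mL and 10.8, 15.4 and 25.7 CPM at 100 ng/mL. The first 2 doses overlapped and the highest lay below both. From 0 to 100 ng/mL the log2 fold change was -1.55 (SE 0.271, adjusted p = 0.00167), and from 0 to 10 ng/mL it was -0.19 (SE 0.185, adjusted p = 0.480).

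IGFBP6, the family member with the strongest preference for IGF2, was expressed at low levels. Uninduced DMSO libraries had 2.50, 1.52 and 1.37 CPM, those at 10 ng/mL had 1.52, 1.60 and 0.533 CPM, and those at 100 ng/mL had 0.261, 0.288 and 0.266 CPM. All libraries at 100 ng/mL lay below all others in DMSO. The log2 fold change at 100 ng/mL was -2.74 (SE 0.389, adjusted p = 0.000317), resting on 5 to 7 reads per induced library.

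IGFBP4, whose protein is cleaved by the protease PAPPA, was also low. The levels were 2.25, 1.52 and 3.09 CPM uninduced, 1.33, 1.25 and 2.17 CPM at 10 ng/mL and 0.417, 0.700 and 0.744 CPM at 100 ng/mL. Only the highest dose was separate from the others. Its log2 fold change there was -1.90 (SE 0.352, adjusted p = 0.00251), and without the third uninduced DMSO library it was no longer called (-1.64, adjusted p = 0.0126).

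IGFBP3, the main IGF carrier in blood, did not pass the test at either dose. DMSO libraries had 2.35, 3.09 and 2.34 CPM uninduced, 2.98, 4.91 and 3.46 CPM at 10 ng/mL and 2.92, 1.77 and 3.35 CPM at 100 ng/mL. The 100 ng/mL libraries overlapped both other doses. The log2 fold change from 0 to 100 ng/mL was -0.01 (SE 0.265, adjusted p = 0.979), with a 95% interval from -0.59 to 0.56. It was 0.54 (SE 0.248, adjusted p = 0.164) from 0 to 10 ng/mL.

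**Figure D2:**
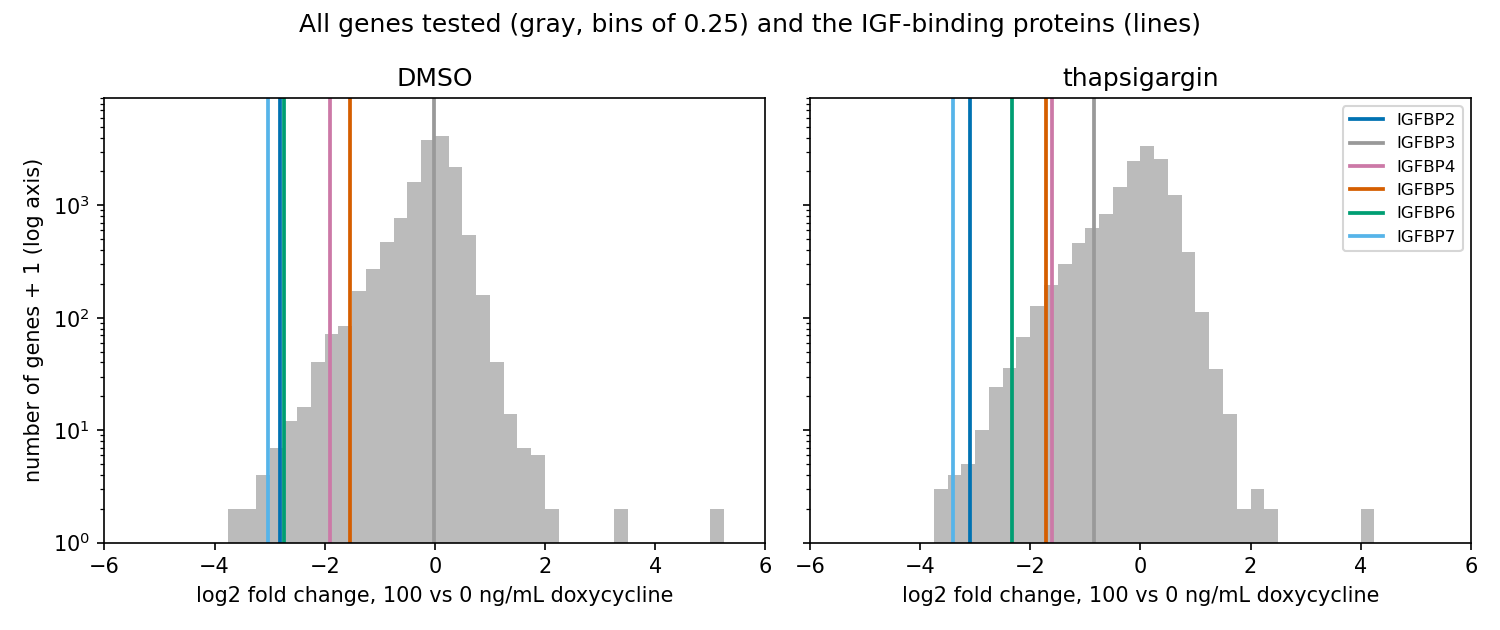
Number of genes plus 1 (log axis, gray, bins of 0.25) by log2 fold change between 100 and 0 ng/mL doxycycline, in DMSO and in thapsigargin, with a line for each IGF-binding protein. In DMSO IGFBP2, IGFBP6 and IGFBP7 lie in the far left tail, at -2.81, -2.74 and -3.02, and IGFBP3 lies in the middle at -0.01.

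At the low dose in DMSO, 0 of the 6 genes were called, and 0.193% of all genes were. IGFBP2 and IGFBP7 were nearest to the threshold, and all their 10 ng/mL libraries lay below all uninduced ones. DESeq2 called both, with adjusted p-values of 0.000639 for IGFBP2 and 0.000683 for IGFBP7, and it called 2.63% of all genes. Both were also called without the first 10 ng/mL library, in a fit that called 18.8% of all genes. Between 10 and 100 ng/mL in DMSO, 2 of the 6 genes were called lower, IGFBP2 at -2.04 (SE 0.198) and IGFBP7 at -2.22 (SE 0.207), both with an adjusted p of 0.00205 in edgeR's test. Over all genes, 2.43% were called lower in that comparison. IGFBP5 (-1.34, adjusted p = 0.0159), IGFBP6 (-2.15, adjusted p = 0.0334), IGFBP4 (-1.37, adjusted p = 0.0545) and IGFBP3 (-0.53, adjusted p = 0.398) were not called. Without the third 100 ng/mL library the count was 0, with an adjusted p of 0.0248 for both IGFBP2 and IGFBP7, and 0 of 14748 genes were called in that edgeR fit (1708 had an unadjusted p under 0.05). DESeq2 and the fit with all 6 groups each called 4, adding IGFBP5 and IGFBP6, and called 5.51% and 4.18% of all genes in either direction. With the replicate number as a block edgeR called the same 4, among 8.41% of all genes. The blocked adjusted p-values were 1.62e-05 for IGFBP5 and 0.00334 for IGFBP6.

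In thapsigargin-treated cells the high dose gave a like picture, with 4 of the 6 genes called lower against 9% of all genes. IGFBP7 had 28.7, 33.8 and 32.2 CPM uninduced, 16.7, 16.4 and 10.0 CPM at 10 ng/mL and 4.42, 2.18 and 2.22 CPM at 100 ng/mL. These doses did not overlap, and the mean at 100 ng/mL was 10.7-fold below that without doxycycline (log2 fold change -3.41, SE 0.262, adjusted p = 4.92e-06). IGFBP2 had 25.1, 25.99 and 31.1 CPM uninduced, 17.3, 16.2 and 17.4 CPM at 10 ng/mL and 3.42, 3.80 and 2.43 CPM at 100 ng/mL. It too was separate at each dose, with a log2 fold change of -3.10 from 0 to 100 ng/mL (SE 0.218, adjusted p = 2.66e-06).

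IGFBP6 in thapsigargin had 2.17, 1.39 and 2.11 CPM uninduced, 1.15, 0.954 and 0.680 CPM at 10 ng/mL and 0.347, 0.352 and 0.413 CPM at 100 ng/mL. The doses were separate for this gene as well, and the fall from 0 to 100 ng/mL was called (-2.32, SE 0.401, adjusted p = 0.00134), but not without the first uninduced library (adjusted p = 0.0118). IGFBP5 was called in the same comparison (-1.71, SE 0.251, adjusted p = 0.000421). IGFBP4 had 1.68, 1.33 and 1.42 CPM uninduced, 1.03, 2.59 and 2.19 CPM at 10 ng/mL and 0.298, 0.422 and 0.723 CPM at 100 ng/mL. Although its highest dose lay below the others, it missed the threshold (-1.61, SE 0.421, adjusted p = 0.0176), which the fit of all 6 groups passed (adjusted p = 0.00813).

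IGFBP3 in thapsigargin had 2.71, 3.36 and 3.08 CPM uninduced, 4.39, 2.27 and 3.40 CPM at 10 ng/mL and 2.48, 1.41 and 1.19 CPM at 100 ng/mL. The libraries at 100 ng/mL lay below the uninduced ones, but the log2 fold change of -0.84 was not called (SE 0.329, adjusted p = 0.0890). Its 95% interval ran from -1.55 to -0.12, and without the first 100 ng/mL library it was called (-1.23, adjusted p = 0.00868) in a fit that called 27.2% of all genes in either direction, against 10.5% with all libraries. IGFBP3 was therefore the member with the smallest log2 fold change between 100 and 0 ng/mL in both treatments.

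From 10 to 100 ng/mL in thapsigargin, IGFBP2 (-2.40, SE 0.225), IGFBP5 (-1.43, SE 0.252) and IGFBP7 (-2.27, SE 0.309) were called, which is 3 of the 6 genes, against 5.32% of all genes called lower. Leaving out the second 100 ng/mL thapsigargin library left only the IGFBP2 call, with adjusted p-values of 0.0351 for IGFBP5 and 0.0144 for IGFBP7. That fit called 0.285% of all genes in either direction, against 5.55% with all libraries. IGFBP4 was at -1.98 (SE 0.484, adjusted p = 0.0182) and was called by DESeq2 (adjusted p = 0.00392), without the filter on low counts (adjusted p = 0.00307) and in the fit with all 6 groups (adjusted p = 0.00173). IGFBP5 lost its call without the first (adjusted p = 0.0162) or the second (adjusted p = 0.0222) 10 ng/mL library, in fits that called 1.48% and 0.975% of all genes in either direction. IGFBP3 (-0.97, adjusted p = 0.0884) and IGFBP6 (-1.31, adjusted p = 0.0713) were not called. From 0 to 10 ng/mL, 0 of the 6 genes and 0% of all genes were called, while 612 genes had an unadjusted p under 0.05 and DESeq2 called 39 genes. IGFBP2 (-0.70, SE 0.131) and IGFBP7 (-1.15, SE 0.192) both had an adjusted p of 0.292. Here all 3 pairs of libraries with the same replicate number deviated from their group means alike. With the replicate number as a block edgeR called both genes, among 564 genes in all. The adjusted p-values were 5.63e-05 for IGFBP2 and 3.13e-06 for IGFBP7. DESeq2 called both genes too.

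**Figure D3:**
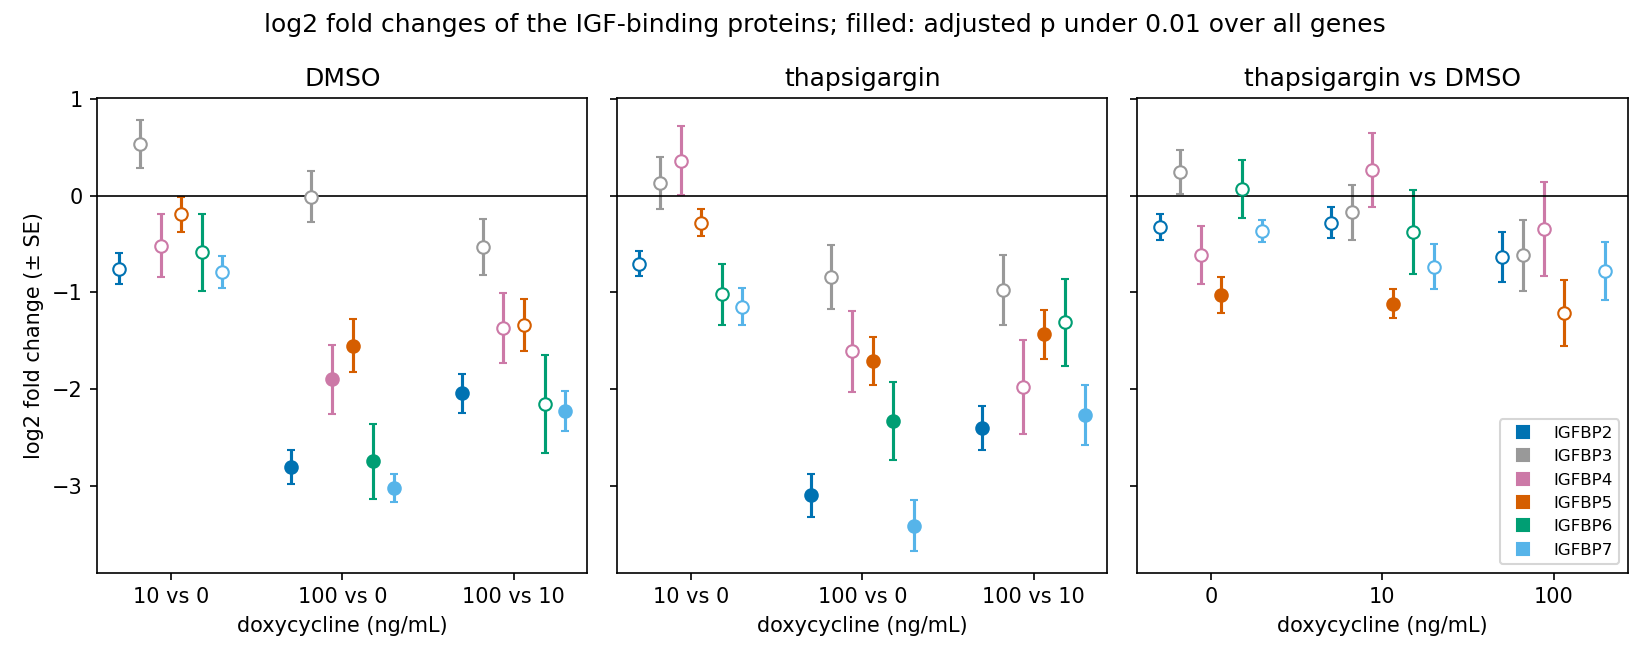
Log2 fold change ± SE of each IGF-binding protein between doxycycline doses in DMSO, between doses in thapsigargin, and between thapsigargin and DMSO at each dose; filled points passed an adjusted p of 0.01. IGFBP2 and IGFBP7 are filled in 4 of the 6 dose comparisons, IGFBP3 in none, and IGFBP5 is the only one filled for thapsigargin against DMSO.

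After thapsigargin 1 of the 6 mRNAs, IGFBP5, was lower in cells without doxycycline, where 4.74% of all genes were called lower. IGFBP5 had 36.3, 48.0 and 62.9 CPM in DMSO and 20.1, 27.2 and 24.4 CPM after thapsigargin. The libraries did not overlap, and the log2 fold change was -1.03 (SE 0.183, adjusted p = 0.00174). At 10 ng/mL it fell from 35.2, 49.1 and 44.5 CPM to 19.4, 21.1 and 19.1 CPM (-1.12, SE 0.150, adjusted p = 0.00288), again 1 of 6 genes, against 0.294% of all genes called lower. This second call was lost without the second DMSO library (adjusted p = 0.0305) or the second thapsigargin library (adjusted p = 0.0259). Those fits called 0.188% and 0.385% of all genes in either direction, 3 and 5 genes lower, against 1.45% and 43 genes lower with all libraries. A fit of all 6 groups lost both calls, at adjusted p-values of 0.0123 and 0.0118. It called 8.47% and 4.5% of all genes in either direction, against 11.2% and 1.45% in the main fits.

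At 100 ng/mL the values of IGFBP5 were 10.8, 15.4 and 25.7 CPM in DMSO and 5.41, 5.84 and 10.7 CPM after thapsigargin. All 3 thapsigargin libraries lay below the DMSO ones, and the log2 fold change of -1.22 had an SE of 0.341 and an adjusted p of 0.0765. In this comparison 0 of the 5 genes tested were called, against 0.201% of all genes, and IGFBP6 had too few counts to be tested. DESeq2 and the fit of all 6 groups each called IGFBP5, where they called 5.07% and 6.26% of all genes. Leaving out the first thapsigargin library gave 1 call, IGFBP7, among 17.6% of all genes. Of the other genes, IGFBP7 had log2 fold changes of -0.37 (SE 0.116, adjusted p = 0.0376) in uninduced cells, -0.73 (SE 0.233, adjusted p = 0.0887) at the low dose and -0.78 (SE 0.297, adjusted p = 0.140) at the high dose. IGFBP2 had -0.32, -0.28 and -0.64 in the same order, with adjusted p-values from 0.0957 to 0.308. With the replicate number as a block edgeR called IGFBP7 lower beside IGFBP5 in uninduced cells (-0.37, adjusted p = 0.00895). The blocked fit also called both genes at the low dose, with IGFBP7 at -0.73 (adjusted p = 1.46e-05). Each of these blocked fits called 24.8% of all genes in either direction.

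The change with thapsigargin was compared between doses as an interaction over 12 libraries. With 10 ng/mL, 0 of the 6 genes and 0% of all genes were called, while 664 genes had an unadjusted p under 0.05 and DESeq2 called 3. With 100 ng/mL, 0 of the 6 genes and 0.0406% of all genes were called. For IGFBP5 the difference between the response at 100 ng/mL and that without doxycycline was -0.10 on the log2 scale (SE 0.430), with a 95% interval from -1.02 to 0.82. IGFBP3 had the widest gap at 100 ng/mL, -0.77 (SE 0.432, adjusted p = 0.276), with an interval from -1.70 to 0.15.

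The other genes of the IGF system were read from lists by role. Of the ligands, IGF2 was tested, and it was at 2.35, 1.25 and 0.743 CPM in uninduced DMSO cells and 1.10, 0.947 and 0.957 CPM at 100 ng/mL (log2 fold change -0.59, SE 0.387, adjusted p = 0.330). IGF1 had at most 8 reads in any library, and INS had 0 reads in all. Among receptors 1 of 3 tested genes was called lower at 100 ng/mL in DMSO, against 7.49% of all genes. That gene was IGF2R, the receptor that takes IGF2 to lysosomes. It had 310.4, 294.2 and 333 CPM uninduced and 103.6, 115.5 and 104.8 CPM at 100 ng/mL, without overlap (-1.57, SE 0.105, adjusted p = 6.90e-07). IGF1R, the signaling receptor, was at 264.6 ± 11.3 and 223.3 ± 8.59 CPM (SD, n = 3), with a log2 fold change of -0.29 and an adjusted p of 0.0666.

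None of the 7 adaptor proteins downstream of the receptors (IRS1, IRS2, IRS4, SHC1, GAB1, GRB10 and GRB14) was called at 100 ng/mL in DMSO. Of the list of the acid-labile subunit, IGFBP proteases and their inhibitors, 3 of 7 tested genes were called lower and 0 higher. Over all genes, 7.49% were called lower there. HTRA1, a secreted serine protease that cleaves IGFBP5, had a log2 fold change of -2.04 (SE 0.165, adjusted p = 3.50e-06), with 25.3, 19.97 and 20.2 CPM uninduced and 5.01, 6.18 and 5.10 CPM at 100 ng/mL. ADAM9, a membrane metalloprotease, was at -0.83 (SE 0.110, adjusted p = 0.000192), and STC1, an inhibitor of PAPPA, at -0.82 (SE 0.183, adjusted p = 0.00901). PAPPA itself was at -0.25 (adjusted p = 0.456).

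A further 11 secreted or membrane proteins that share the amino-terminal IGFBP domain were listed. Of these, 3 of 7 tested were called lower at 100 ng/mL in DMSO, against 7.49% of all genes. IGFBPL1, the closest by name, had 56.1, 51.7 and 51.5 CPM uninduced and 12.6, 11.9 and 13.2 CPM at 100 ng/mL (-2.12, SE 0.122, adjusted p = 2.79e-07). NOV (CCN3), a matricellular protein, was at -1.55 (SE 0.225, adjusted p = 0.000379), and CRIM1, a membrane protein that binds bone morphogenetic proteins, at -0.56 (SE 0.110, adjusted p = 0.00366). The related CYR61 and CTGF were at 0.38 and 0.18, with adjusted p-values of 0.121 and 0.431. IGFBP1 had 0 reads in 17 libraries and 1 read in the other. A count of 0 allows up to 3 reads, or 0.118 to 0.211 CPM, for counting error only.

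**Figure D4:**
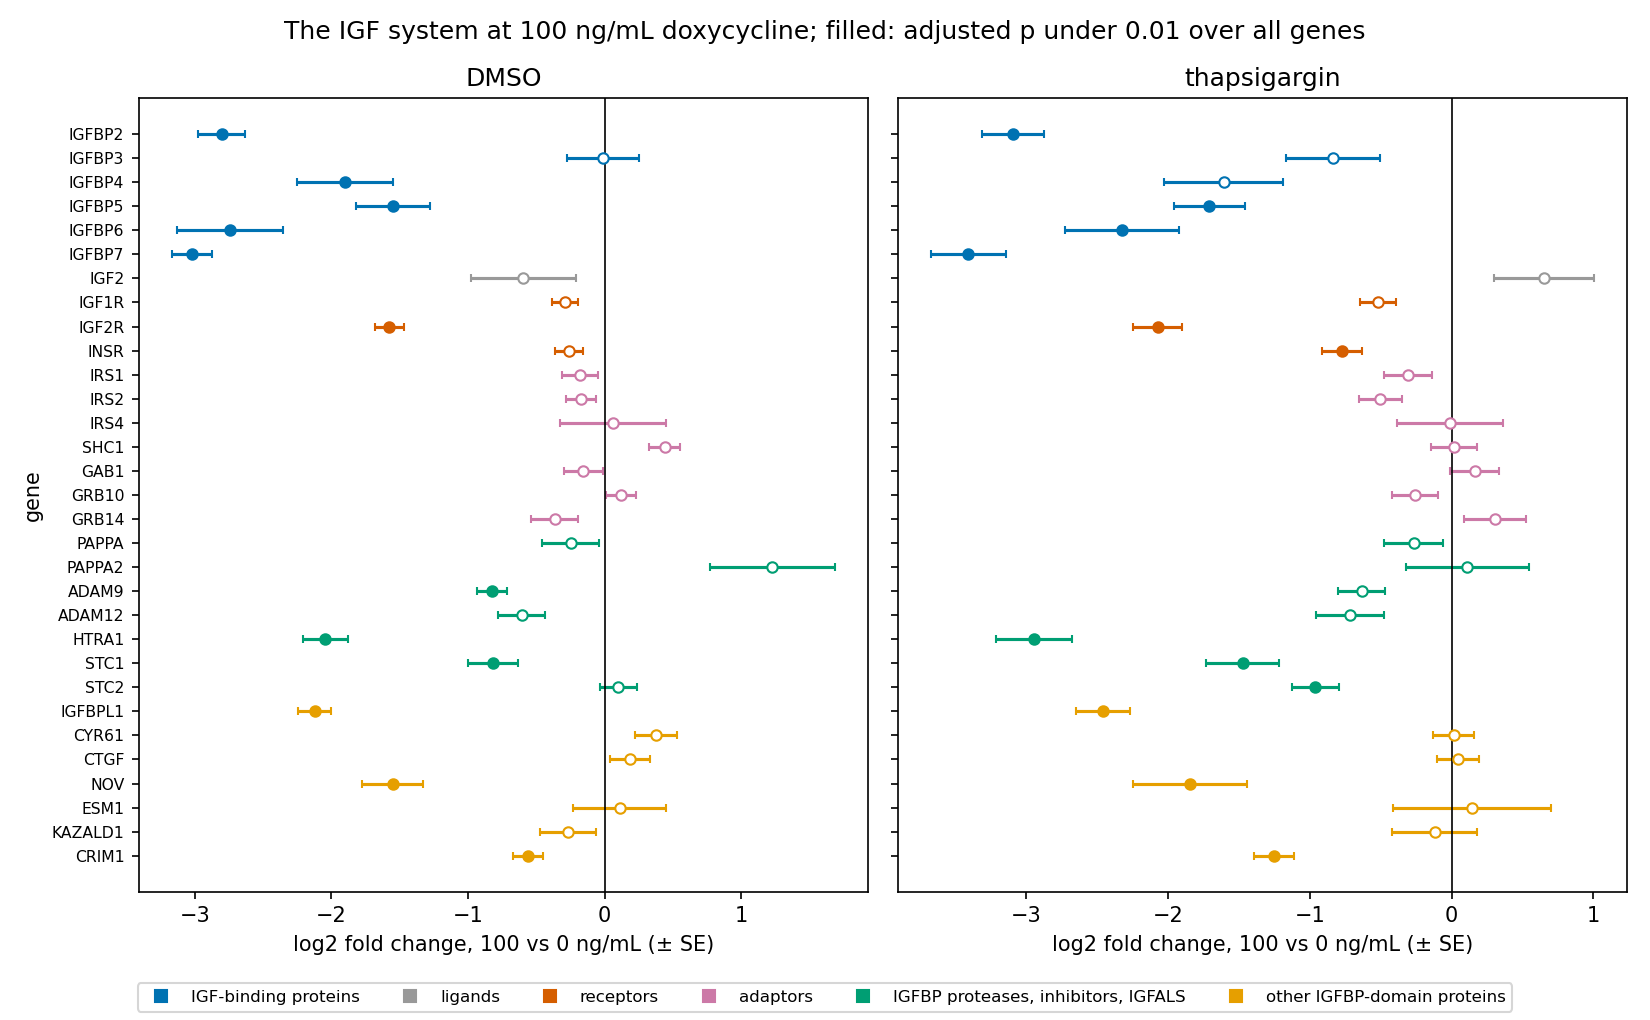
Log2 fold change ± SE between 100 and 0 ng/mL doxycycline for each tested gene of the IGF system in DMSO and in thapsigargin, colored by role; filled points passed an adjusted p of 0.01. In DMSO the filled points are 5 IGF-binding proteins, IGF2R, ADAM9, HTRA1, STC1, IGFBPL1, NOV and CRIM1, all below 0.

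In thapsigargin the list counts at 100 ng/mL were 2 of 3 receptors lower (IGF2R and INSR), 0 of 7 adaptors, 3 of 7 of the protease list (HTRA1, STC1 and STC2) and 3 of 7 of the other IGFBP-domain proteins (IGFBPL1, NOV and CRIM1). Over all genes, 9% were called lower in this comparison. IGF2R was at -2.07 (SE 0.172) and HTRA1 at -2.95 (SE 0.268). IGFBPL1 was at -2.46 (SE 0.189). IGF2 was at 0.65 (SE 0.353, adjusted p = 0.206).

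Over the 18 libraries, log2 CPM of IGFBP2 and IGFBP7 had a Pearson correlation of 0.975, and that of IGFBP6 had 0.894 with IGFBP2 and 0.892 with IGFBP7. IGFBP3 had its highest value, 0.574, with IGFBP7. These are descriptions over 18 libraries that share the dose of doxycycline and the scaling. By the same measure, the genes most like IGFBP7 among 15018 were PLXND1 (0.995), ITFG3 (0.994) and MAN2B2 (0.993), and those most like IGFBP2 were LPHN1 (0.992), NXPH4 (0.990) and SHISA5 (0.990). IGFBP5 was closest to ZDHHC3 (0.963), PABPC4 (0.959) and MMP15 (0.959), and IGFBP6 to PRAF2 (0.963), PIGT (0.962) and RNF167 (0.947). IGFBP4 was closest to ACAT2 (0.919), ALG3 (0.889) and VOPP1 (0.884). The best values for IGFBP3 were lower, with TLCD1 (0.781), GGT7 (0.780) and FZD9 (0.780).

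The order of libraries by ERN2 within a group did not go with the members in 1 direction, but some of the differences below are near ties or a few reads. In both low-dose groups the third library had the highest ERN2 (55.9 CPM in DMSO and 111.5 CPM in thapsigargin) and the lowest IGFBP7 (19.6 and 10.0 CPM) and IGFBP6 (0.533 and 0.680 CPM). In thapsigargin its IGFBP2 was the highest only by a near tie (17.4 CPM, against 17.3 and 16.2 CPM). At 100 ng/mL in DMSO the second library had the highest ERN2 (309.3 CPM) and the highest IGFBP7 (5.85 CPM) and IGFBP6 (0.288 CPM, with 5, 7 and 5 reads in the 3 libraries). With thapsigargin at that dose the first library had the highest ERN2 (271.9 CPM), the highest IGFBP7 (4.42 CPM) and the lowest IGFBP6 (0.347 CPM, with 7, 5 and 8 reads in the 3 libraries). The part of ERN2 level within a group in these values was not tested.

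In GENCODE release 29, IGFBP2 (chr2:216632828-216664436, plus strand) and IGFBP5 (chr2:216672105-216695525, minus strand) are neighbors that point toward each other, with 7668 bases between them. IGFBP3 (chr7:45912245-45921874, minus strand) lies 18576 bases from IGFBP1. IGFBP4 is at chr17:40443461-40457731 and IGFBP6 at chr12:53097436-53102345, both on the plus strand. IGFBP7 (chr4:57030773-57110385, minus strand) overlaps IGFBP7-AS1 by 624 bases and POLR2B by 396 bases on the other strand. The IGFBP7-AS1 row held 0 to 11 reads per library against 31 to 832 for IGFBP7. The library kit keeps strand, but whether counting used strand is not given in the sources used here, so reads from these overlaps cannot be told apart for certain.

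Promoter windows of 300 bases around a start site in RefSeq (GRCh38.p14) covered 7 starts of 5 of the genes, 3 of them of IGFBP2 and none of IGFBP7. Both strands were searched. GGGCGG, the GC box, was in 5 of the 7 windows and in 45% of 35116 such windows. CCAAT and ACGTG, the latter a core of XBP1 and ATF6 sites, were each in 1 of the 7, at the most downstream start of IGFBP2, against 34.6% and 21.4% of all windows. TGATGNAA, found in ATF4 sites, and TGACG, a core of CREB sites that can overlap ACGTG, were in none, against 3.62% and 24.55% of all windows. TATAAA was in 1 window, that of IGFBP4, against 11.5% of all.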

How the data were processed

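RNA-Seq libraries (KAPA stranded mRNA HyperPrep) were aligned by the authors with STAR, and raw counts of reads per gene symbol were deposited for 18 libraries, with no normalization. The submitters' processing notes name hg38, STAR and DESeq2. Versions, annotation and strand setting are not given in the sources used here. The table holds 25435 rows, 28 of them with a date in place of a symbol, and 0 columns were left unused. Groups and replicate numbers came from the labels.

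Each comparison used only its own groups. Genes kept by filterByExpr (minimum count 10) were scaled by TMM and tested in edgeR 4.0.16 (glmQLFit, glmQLFTest; R 4.3.3) with Benjamini-Hochberg adjustment over all genes and a threshold of 0.01. The SE was obtained as |log2 fold change| / √F, and intervals use the fit's degrees of freedom. CPM were scaled by TMM over 18 libraries. Correlations used log2 CPM with a prior count of 2. Alternatives were DESeq2 1.42.0, RLE size factors, no filter, a fit of all 6 groups, a replicate block, an adjusted p of 0.05 and each library left out. Counts of same-group libraries varied beyond sampling error, and each library was kept as 1 replicate. An exact permutation of 3 against 3 libraries cannot reach a two-sided p of 0.05. The tests were checked on simulated counts.

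Pairing by replicate number was checked by correlating deviations from group means. All 3 pairs were over 0.1 only between 10 and 0 ng/mL in thapsigargin (0.400, 0.345 and 0.468), where the blocked values are given. Replicate numbers may also pair libraries in other comparisons. IRS4 rose from replicate 1 to 3 in all 6 groups, as with 70.3, 103.2 and 214 CPM in uninduced DMSO cells. Members called only with the block in other comparisons are therefore given as well. The genes named were the 6 members, IGFBP1, IGFBPL1, ERN2, listed genes that passed at 100 ng/mL in DMSO, and the 3 genes most like each member. Other listed genes were named to describe their list, after their values were seen. The members and lists were chosen with earlier results of these data known. Transcript length per kilobase is that of the longest complete protein-coding transcript in GENCODE 29. Figures used matplotlib.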

Additional observations from a re-analysis of the deposited data

How the results depend on the processing

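Counts of called members moved with the processing as follows. Causes were not tested. A percentage in brackets is the share of all genes called in either direction in the same fit. From 0 to 10 ng/mL doxycycline in DMSO the count of 0 became 1 at an adjusted p of 0.05 (0.759%) and 2 with DESeq2 (2.63%). It became 2 without the filter on low counts (3.14%) and 1 with the replicate block (0.855%), which was IGFBP7 at an adjusted p of 0.00787. Leaving out 1 library gave 0 to 2. From 10 to 100 ng/mL in DMSO the count of 2 became 4 at 0.05 (5.75%) and 4 with DESeq2 (5.51%). It was also 4 in the fit with all 6 groups (4.18%) and with the replicate block (8.41%), and 0 to 3 with 1 library left out. From 0 to 10 ng/mL in thapsigargin the count of 0 became 2 with DESeq2 (0.269%) and 2 with the replicate block (3.89%). From 10 to 100 ng/mL in thapsigargin the count of 3 became 4 at 0.05 (14.2%), with DESeq2 (11.4%), without the filter (8.31%) and in the fit with all 6 groups (13.7%). Each of these added IGFBP4, and the count was 1 to 3 with 1 library left out. For thapsigargin against DMSO without doxycycline the count of 1 became 2 at 0.05 (22.6%) and 0 in the fit with all 6 groups (8.47%). It became 2 with the replicate block (24.8%), and both counts of 2 were IGFBP5 and IGFBP7. With 10 ng/mL the count of 1 became 0 in the fit with all 6 groups (4.5%). It became 2 with the replicate block (24.8%), again IGFBP5 and IGFBP7, and 0 to 1 with 1 library left out. With 100 ng/mL the count of 0 became 1 with DESeq2 (5.07%), 1 in the fit with all 6 groups (6.26%) and 0 to 1 with 1 library left out. From 0 to 100 ng/mL the counts stayed at 4 to 5 in DMSO and 3 to 5 in thapsigargin with 1 library left out. In both interactions they stayed at 0.

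Directions turned only for log2 fold changes that were not called. IGFBP3 from 0 to 100 ng/mL in DMSO was 0.00113 with DESeq2 and ran from -0.21 to 0.23 with 1 library left out. Over libraries left out, IGFBP5 from 0 to 10 ng/mL in DMSO ran from -0.37 to 0.026, and IGFBP3 from 0 to 10 ng/mL in thapsigargin from -0.12 to 0.36. For thapsigargin against DMSO, IGFBP6 without doxycycline ran from -0.076 to 0.39, IGFBP3 with 10 ng/mL from -0.43 to 0.053 and IGFBP4 with 10 ng/mL from -0.017 to 0.58. In the 10 ng/mL interaction, IGFBP2 ran from -0.0495 to 0.22 and IGFBP5 from -0.30 to 0.10. In the 100 ng/mL interaction, IGFBP4 ran from -0.13 to 0.58 and IGFBP5 from -0.53 to 0.30.

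The number of all genes called also varied between settings. Apart from libraries left out, it ran from 3 to 623 (main 28) and from 0 to 564 (main 0) for 0 to 10 ng/mL in DMSO and thapsigargin, from 750 to 2063 (main 1203) and 1390 to 3018 (main 1512) for 0 to 100 ng/mL, and from 316 to 1224 (main 356) and 384 to 2061 (main 805) for 10 to 100 ng/mL. For thapsigargin against DMSO it ran from 1273 to 3571 (main 1611), 205 to 3620 (main 212) and 4 to 941 (main 29) with rising dose, and for the interactions from 0 to 3 (main 0) and 1 to 341 (main 6). With 1 library left out, in the order of doses 0 to 10, 0 to 100 and 10 to 100 ng/mL, it ran from 0 to 2743, 915 to 1397 and 0 to 496 in DMSO, and from 0 to 0, 763 to 3950 and 42 to 2712 in thapsigargin. For thapsigargin against DMSO it then ran from 731 to 1901, 28 to 494 and 4 to 2568, and for the interactions from 0 to 0 and 2 to 1286. The shares over all genes given beside the members' counts move with these numbers. Depth limits IGFBP4 and IGFBP6, whose counts fell to 6 and 5 reads per library.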
